A study of Mus musculus with 21 samples.

Results

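A set of 47 imprinted genes, at 18 clusters and single-gene loci that include Mest/Copg2, was followed through RNA-seq of mouse embryonic stem cells (mESCs) in which the cohesin subunits PDS5A and PDS5B, and in some samples STAG1 or STAG2, had been removed. The genes were listed by symbol from general knowledge of imprinting, although earlier results of these data were known when they were chosen. All 47 symbols were found among the 23412 gene symbols of the count tables. Of the 47, 24 are known to be expressed mainly from the paternal allele in at least some tissues, and 22 mainly from the maternal allele. Gnas gives transcripts from both. Whether each gene keeps its parental class in these cells was not tested. The counts do not separate the parental alleles, so every value below is the sum over both alleles of a gene.

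Genomic imprinting restricts transcription of a gene to the copy inherited from one parent. The choice is set by differentially methylated regions (DMRs) that acquire DNA methylation in only the egg or only the sperm, and that are kept methylated in the early embryo and in mESCs by the zinc-finger protein ZFP57 and its partner TRIM28. Within a cluster the effects of such a region spread to neighboring genes through long non-coding RNAs such as Airn and Kcnq1ot1 and through insulators bound by CTCF, the protein at which cohesin pauses when it extrudes DNA loops. PDS5A and PDS5B bind the cohesin ring, and STAG1 and STAG2 are alternative subunits that place the ring on DNA. Work in yeast describes a competition of PDS5 with the cohesin loader. The paper on these cells reported a weaker association of cohesin with the loader, NIPBL, after depletion of both PDS5 proteins. It also found that the loader co-purified with PDS5A. Loss of imprinting is a well-known property of cultured mESC lines.

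The cells were the male mESC line v6.5. Libraries of poly-A RNA were made from 7 conditions with 3 replicates each, for 21 libraries in all. Wild-type (WT) cells received either siGLO, a transfection control that targets no gene, or an siRNA against Pds5b (siPds5b). A Pds5a knockout line (Pds5a-KO) received siGLO, siPds5b, siStag1 or siStag2, and a Pds5b knockout line (Pds5b-KO) received siGLO. Every well, WT included, was transfected with 50 nM of its siRNA or of siGLO and harvested after 48 h. Each knockout is a single CRISPR/Cas9 clone, so an effect of the gene and a property of the clone cannot be told apart, and its 3 replicates are samples of that clone. P-values therefore measure the spread between these samples, which may be technical.

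Libraries held 17311090 to 23989198 counts, and no library duplicated another. Levels are given as normalized counts, that is, counts scaled to a common effective library size, and differences as log2 fold changes with their standard error (SE) and a Benjamini-Hochberg adjusted p over 14963 tested genes from edgeR's quasi-likelihood test. A gene was called at an adjusted p under 0.01. Pds5b fell to 12.4% of its WT siGLO level in Pds5b-KO cells, to 35.0% in WT siPds5b and to 40.7% in Pds5a-KO siPds5b. Stag1 and Stag2 were at 23.3% and 25.9% under their own siRNA. Pds5a RNA in Pds5a-KO siGLO was 84.4% of WT and was not called, so RNA does not check that label. The 10 mESC markers examined, among them Pou5f1, Sox2 and Nanog, were all expressed, and their summed level was 147573 to 157334 in WT siGLO, 116244 to 129669 in Pds5a-KO siGLO and 111290 to 126187 in Pds5b-KO siGLO. Replicate 1 had the highest sum of primitive endoderm markers in each of the 7 conditions, with 8305 against 3957 and 3977 in Pds5a-KO siGLO but only 3598 against 3340 and 3262 in Pds5a-KO siStag2, so several members whose replicate 1 stood apart are also given without it. In Pds5b-KO siGLO the sums were 11130, 6447 and 5360, all above the 5214, 3406 and 3672 of WT siGLO; the 8 markers had values of 0.65 to 1.26 there, with 0 called by edgeR or DESeq2 and 3 at an unadjusted p under 0.05. Mesoderm and primitive streak markers summed to 156, 480 and 681 in WT siGLO, 114, 185 and 172 in Pds5a-KO siGLO and 97.1, 172 and 133 in Pds5b-KO siGLO, with 0 of 5 called by edgeR in either line, 1 and 3 at an unadjusted p under 0.05, and T alone called by DESeq2, lower in Pds5b-KO. The part of these cells in the changes of the imprinted genes was not tested. In bulk RNA, fewer cells of one type and less RNA per cell cannot be told apart.

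Promoter sequence is shown for the 4 genes on which the account of methylated promoters turns. Beside Mest these are Nnat, which rose the most in Pds5a-KO cells among the members whose promoter lies in a maternally methylated region, and Plagl1 and Mcts2, which after Mest fell the most there among those with a window. Each window runs from 250 bases before the annotated start to 50 bases after it, 5′ to 3′ on the gene's strand (RefSeq, GRCm38.p6, all on the plus strand), and capitals mark the hexamer bound by methylated-DNA reader ZFP57, TGCCGC, or its reverse complement GCGGCA. The windows are chr6:30737800-30738099 for Mest, chr2:157559828-157560127 for Nnat, chr10:13090582-13090881 for Plagl1 and chr2:152686898-152687197 for Mcts2.
Mest: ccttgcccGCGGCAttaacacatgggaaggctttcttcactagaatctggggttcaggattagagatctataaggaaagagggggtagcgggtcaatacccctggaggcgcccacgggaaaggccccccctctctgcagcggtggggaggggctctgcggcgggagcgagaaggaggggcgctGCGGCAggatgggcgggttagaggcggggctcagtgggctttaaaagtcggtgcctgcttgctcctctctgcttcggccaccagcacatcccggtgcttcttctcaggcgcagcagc
Nnat: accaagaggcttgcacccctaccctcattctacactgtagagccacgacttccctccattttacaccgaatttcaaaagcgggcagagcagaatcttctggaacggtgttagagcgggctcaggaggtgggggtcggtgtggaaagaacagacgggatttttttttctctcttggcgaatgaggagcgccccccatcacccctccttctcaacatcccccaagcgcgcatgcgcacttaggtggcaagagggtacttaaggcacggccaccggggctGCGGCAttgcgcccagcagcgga
Plagl1: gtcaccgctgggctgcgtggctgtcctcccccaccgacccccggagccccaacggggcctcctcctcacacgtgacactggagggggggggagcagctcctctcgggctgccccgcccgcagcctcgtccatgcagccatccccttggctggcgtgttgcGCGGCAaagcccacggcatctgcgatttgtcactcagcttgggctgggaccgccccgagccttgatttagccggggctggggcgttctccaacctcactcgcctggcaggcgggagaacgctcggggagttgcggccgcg
Mcts2: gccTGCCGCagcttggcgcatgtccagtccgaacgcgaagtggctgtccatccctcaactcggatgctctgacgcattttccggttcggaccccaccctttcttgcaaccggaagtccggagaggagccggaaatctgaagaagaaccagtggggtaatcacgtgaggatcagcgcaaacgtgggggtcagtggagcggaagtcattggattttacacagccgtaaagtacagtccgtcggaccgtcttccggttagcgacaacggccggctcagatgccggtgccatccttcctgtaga
The Mest window printed held 2 of these hexamers and the others 1 each, with 17 CpG dinucleotides in Mest and in Nnat, 26 in Plagl1 and 25 in Mcts2. Another annotated window of Mest, chr6:30733256-30733555, held 0 hexamers and 8 CpG dinucleotides. Windows were available for 36 of the 47 genes. Among them the hexamer, searched on both strands, was present in 8 of 13 genes (61.5%) whose promoter lies in a maternally methylated region, in 6 of 23 of the other members (26.1%), and in 13.1% of 27025 mouse genes. A gene was counted if any of its windows held the hexamer. Counted by window, the shares were 47.4%, 17.6% and 11.6%. These matches describe letters in a window and not binding.

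Imprinted genes covered a wide range of levels in WT siGLO cells. Per kilobase of exon, the highest were Grb10 (1261), an adaptor that restrains insulin-receptor signaling, Phlda2 (1131), a growth-restraining protein of the placenta, and Cd81 (1098), a membrane tetraspanin. Mest, a hydrolase of the endoplasmic reticulum found in embryonic mesoderm, was at 519, Peg10, a retrotransposon-derived gene needed for the placenta, at 525, and Impact, a regulator of translation, at 546. At the other end Kcnq1ot1 was at 0.95, Klf14 at 0.71 and Airn at 0.68. Kcnk9 and Snurf had no count in any of the 21 libraries, and Snrpn had 0 to 2 counts per library. The exons of Snurf lie entirely within those of other annotated genes (Snrpn and Gm38393), and whether reads there went uncounted was not tested. A count of 0 allows up to 3 counts in a library, by counting error alone. Kcnk9, Snurf and Snrpn were the only members that did not pass the low-count filter, which left 44 for testing.

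In Pds5a-KO siGLO against WT siGLO, 17 of the 44 tested members were called, 11 higher and 6 lower, where 17.8% of all genes tested were called (9.63% higher and 8.12% lower). In Pds5b-KO siGLO against WT siGLO, 23 were called, 12 higher and 11 lower, against 18.2% of all genes (9.64% higher and 8.57% lower). Both comparisons use the same WT siGLO libraries. Directly compared, 18 members differed between the knockouts, 10 higher and 8 lower in Pds5a-KO than in Pds5b-KO, with 19.2% of all genes called (9.74% higher and 9.46% lower). The median size of change over the tested members, regardless of sign, was 0.44 on the log2 scale in Pds5a-KO and 0.77 in Pds5b-KO, where the medians over all genes were 0.22 and 0.25. These counts cover only the members that passed the filter and carry no test of the group.

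**Figure D1:**
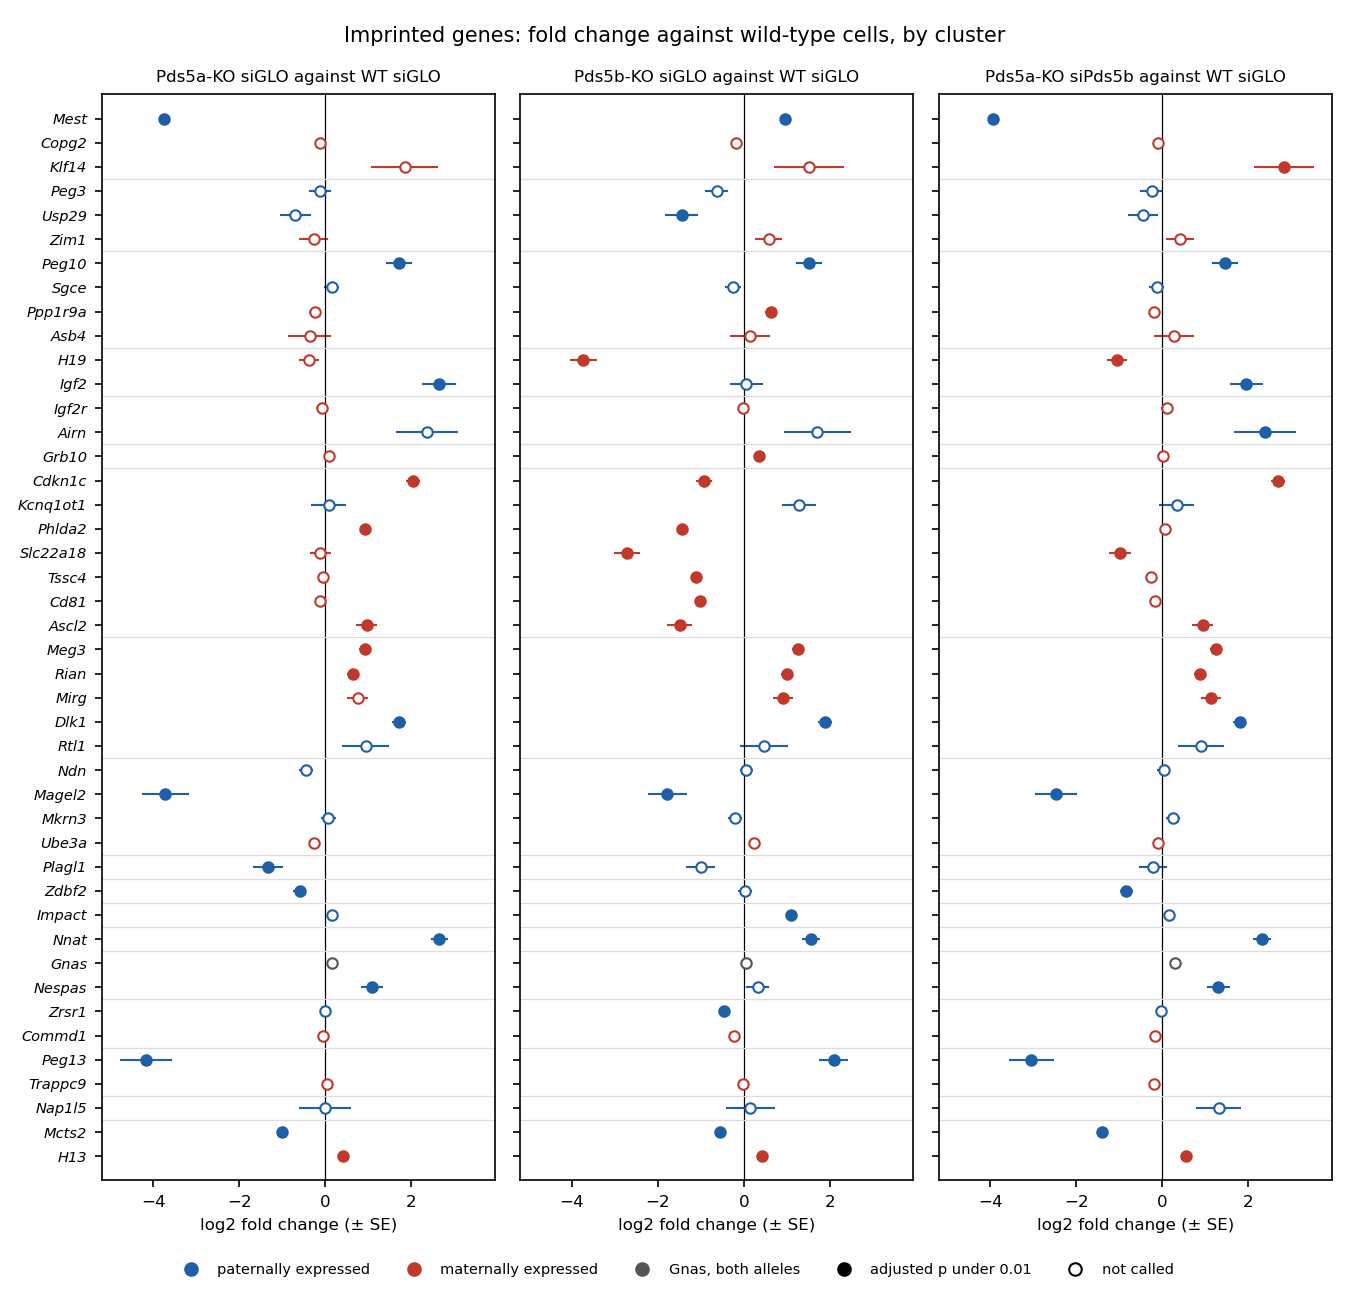
Log2 fold change (x axis, ± SE) of the 44 tested imprinted genes (y axis, ordered by cluster) in Pds5a-KO siGLO, Pds5b-KO siGLO and Pds5a-KO siPds5b cells, each against the same WT siGLO libraries; filled points were called at an adjusted p under 0.01. Mest and Peg13 lie far to the left in the Pds5a-KO panels and to the right in the Pds5b-KO panel, and H19 and Slc22a18 lie far to the left in the Pds5b-KO panel.

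Mest showed the clearest opposite values in the knockout lines. The gene lies at chr6:30733506-30748466 (GRCm38) and had 1985, 1951 and 2201 normalized counts in the WT siGLO libraries, 147, 158 and 150 in Pds5a-KO siGLO, and 4441, 3866 and 3688 in Pds5b-KO siGLO. The 3 groups did not overlap. The change was -3.75 (SE 0.11, adjusted p = 9.8e-18 by edgeR) in Pds5a-KO and 0.97 (SE 0.09, adjusted p = 3.4e-08) in Pds5b-KO. In the remaining Pds5a-KO conditions Mest stayed near its level in that line, with means of 133 ± 23.0 (SD, n = 3) after siPds5b, 144 ± 7.11 after siStag1 and 153 ± 20 after siStag2, and none of these was called against Pds5a-KO siGLO. WT siPds5b had 1861 ± 102 against 2046 ± 136 in WT siGLO (-0.14, SE 0.09, not called).

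The genes beside Mest did not share these changes. Copg2, which encodes a COPI vesicle coat subunit and is transcribed toward Mest from the opposite strand, had 1538 ± 38.6 normalized counts in WT siGLO, 1411 ± 20 in Pds5a-KO siGLO and 1364 ± 63.5 in Pds5b-KO siGLO, and was called in no comparison. The log2 ratio of Mest to Copg2 was 0.41 ± 0.11 in WT siGLO, -3.21 ± 0.03 in Pds5a-KO and 1.55 ± 0.10 in Pds5b-KO (SD, n = 3). The exons of the pair overlap over 23.1% of Mest and 17.8% of Copg2 on opposite strands, and whether the counting used strand is not given in the sources used here, so some reads cannot be assigned to one of them. Klf14, a maternally expressed Krüppel-like transcription factor at the far side of Copg2, was barely expressed in WT siGLO (2.58, 2.25 and 1.65) and higher in Pds5a-KO siPds5b (17.8, 18.7 and 12.0), a change of 2.84 (SE 0.70, adjusted p = 0.0019) that was not called without WT siGLO replicate 3 (adjusted p = 0.0133). Of 13 genes listed around Mest, 8 were tested. Among them 1 fell in each knockout, where 8.12% of all genes were called lower in Pds5a-KO and 8.57% in Pds5b-KO. That gene was Tmem209, which fell by 0.34 in Pds5a-KO and by 0.37 in Pds5b-KO on the log2 scale.

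**Figure D2:**
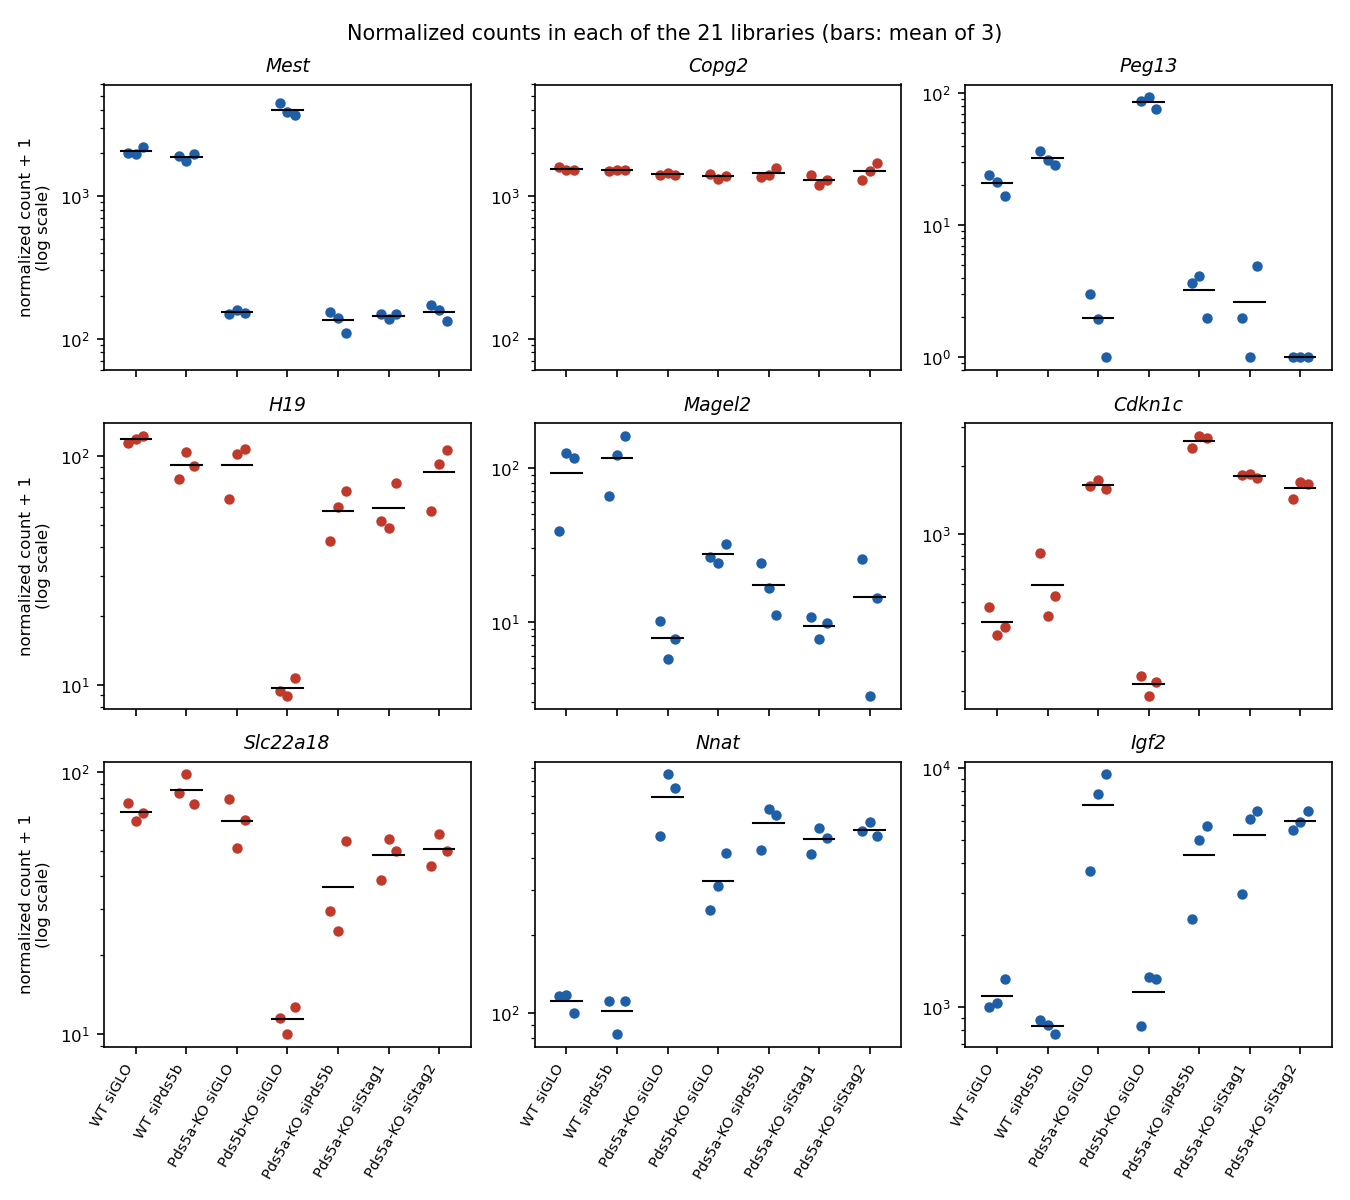
Normalized counts plus 1 (y axis, log scale) of imprinted genes with large changes in each of the 21 libraries (points) by condition (x axis), with bars at the mean of 3. Mest is near 150 in all 4 Pds5a-KO conditions and at 3688 to 4441 in Pds5b-KO siGLO, while Igf2 replicate 1 lies below its group in Pds5a-KO siGLO.

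Peg13, a non-coding RNA made from the paternal allele inside the Trappc9 gene, moved in the same directions as Mest at far lower levels. Its raw counts were 27, 18 and 19 in WT siGLO, 2, 1 and 0 in Pds5a-KO siGLO, and 82, 92 and 77 in Pds5b-KO siGLO. The 3 counts in Pds5a-KO siGLO correspond to 4.94% of WT, with an exact Poisson 95% interval of 0.994% to 15.1% that covers counting error only. In Pds5b-KO the change was 2.09 (SE 0.33, adjusted p = 6.3e-05), and the direct comparison of the knockouts was also called (adjusted p = 1.2e-08). Peg13 stayed at 0 to 4 counts in every other Pds5a-KO library, and the 3 siStag2 libraries had none. Trappc9, the host gene and a trafficking factor, had 523 ± 47.4 normalized counts in WT siGLO, 542 ± 36.6 in Pds5a-KO and 522 ± 23.5 in Pds5b-KO and was called in no comparison.

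At Igf2/H19, each knockout changed a different partner. Igf2, a fetal growth factor (chr7:142650768-142666816), had 995, 1032 and 1309 normalized counts in WT siGLO and 3705, 7769 and 9366 in Pds5a-KO siGLO, a rise of 2.64 (SE 0.39, adjusted p = 0.00017). All 3 Pds5a-KO libraries lay above all WT libraries, and replicate 1 was the lowest of its group; without it the rise was 2.94 (adjusted p = 5.0e-05). Fitted on these 6 libraries alone, with their own estimate of spread, the same change was not called (2.64, adjusted p = 0.012). In Pds5b-KO siGLO, Igf2 had 828, 1328 and 1307 counts and the change was 0.05 (SE 0.38).

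H19 (chr7:142575530-142578146), the maternally expressed non-coding RNA that shares enhancers with Igf2, behaved the other way around. It had 113, 118 and 122 normalized counts in WT siGLO, 64.0, 101 and 107 in Pds5a-KO siGLO, and only 8.44, 7.98 and 9.71 in Pds5b-KO siGLO. The fall in Pds5b-KO was -3.74 (SE 0.31, adjusted p = 6.0e-09), whereas the value in Pds5a-KO was -0.37 (SE 0.23, not called). The log2 ratio of Igf2 to H19 was 3.22 ± 0.17 in WT siGLO, 6.18 ± 0.31 in Pds5a-KO and 6.94 ± 0.38 in Pds5b-KO (SD, n = 3), so the ratio was higher in both lines although a different gene moved in each. Of the Igf2 exons, 62.8% overlap another annotated gene on the same strand, Gm49394, which limits how exactly its reads can be assigned. In Pds5a-KO siPds5b against WT siGLO, Igf2 was higher by 1.96 (SE 0.39, adjusted p = 0.00084) and H19 fell by 1.05 (SE 0.24, adjusted p = 0.00097); on those 6 libraries alone the Igf2 value was not called here either (1.96, adjusted p = 0.011).

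**Figure D3:**
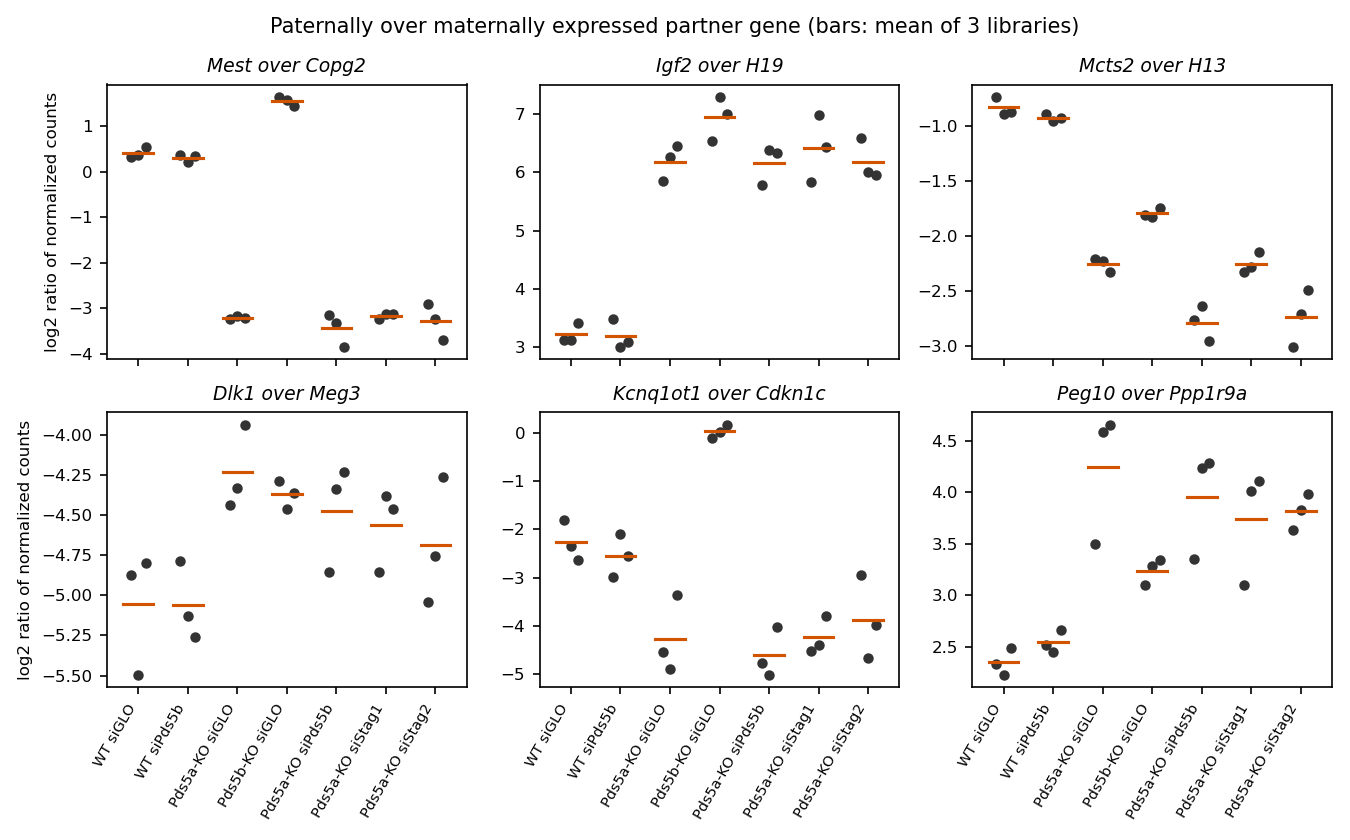
Log2 ratio of normalized counts (y axis) of a paternally expressed gene over its maternally expressed partner in each library (points) by condition (x axis), with bars at the mean of 3. Igf2 over H19 is above the WT siGLO libraries in both knockouts, and Mest over Copg2 is below them in all Pds5a-KO conditions and above them in Pds5b-KO siGLO.

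The Kcnq1ot1 cluster, next along chromosome 7, holds 6 maternally expressed members and the paternally expressed long RNA Kcnq1ot1, which silences its neighbors in cis. In Pds5a-KO siGLO, 3 of the 7 rose and none fell. Cdkn1c, the CDK inhibitor p57 (chr7:143458339-143461059), had 472, 353 and 384 normalized counts in WT siGLO and 1640, 1741 and 1590 in Pds5a-KO siGLO, groups that did not overlap, for a rise of 2.04 (SE 0.16, adjusted p = 2.6e-08). Ascl2, a transcription factor of trophoblast progenitors, rose by 0.97 (SE 0.25, adjusted p = 0.0055), a call lost when any of 5 of the 6 libraries was left out (adjusted p of 0.0109 to 0.0434). Phlda2 rose by 0.92 (SE 0.12, adjusted p = 4.5e-06). Kcnq1ot1 itself differed by 0.08 (SE 0.41, not called).

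In Pds5b-KO siGLO, all 6 maternally expressed members of this cluster fell. Slc22a18, a membrane transporter, had 75.6, 64.2 and 68.6 normalized counts in WT siGLO and 10.6, 8.97 and 11.7 in Pds5b-KO siGLO, a change of -2.73 (SE 0.30, adjusted p = 3.9e-07). Ascl2 fell by 1.49, Phlda2 by 1.43, Tssc4, a spliceosome assembly factor, by 1.10, Cd81 by 1.03 and Cdkn1c by 0.93 on the log2 scale. Kcnq1ot1 had 215, 192 and 245 normalized counts against 135, 68.7 and 61.2 in WT siGLO, a difference of 1.29 (SE 0.39, adjusted p = 0.019) that was not called. WT replicate 1 was high for this gene, and the difference was called without it (1.76, adjusted p = 0.0063) and with only the 6 compared libraries (1.29, adjusted p = 0.0029). The log2 ratio of Kcnq1ot1 to Cdkn1c was -2.26 ± 0.42 in WT siGLO, -4.27 ± 0.80 in Pds5a-KO and 0.03 ± 0.14 in Pds5b-KO (SD, n = 3). In the direct comparison of the knockouts Cdkn1c (2.96), Slc22a18 (2.61), Ascl2 (2.46), Phlda2 (2.35), Tssc4 (1.04) and Cd81 (0.90) were all called higher in Pds5a-KO than in Pds5b-KO.

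The surroundings of this cluster also differed in Pds5b-KO cells. Among genes of distal chromosome 7 that are neither members nor other listed imprinted genes, the 26 tested genes from 142 Mb to the chromosome end had a median of -0.74 on the log2 scale in Pds5b-KO, with 15 called lower and 0 higher, and the 72 genes between 137 and 142 Mb had a median of 0.77, with 51 called higher and 1 lower. Both the Igf2/H19 and the Kcnq1ot1 cluster lie in the lower stretch, whose boundary was chosen after the values were seen. In Pds5a-KO the same stretches had medians of 0.13 and 0.16, and in WT siPds5b, where Pds5b was lowered for 48 h, 0.03 and 0.01 with 0 genes called by edgeR. DNA copy number was not measured, and its part in these values was not tested.

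Members of distal chromosome 7 were therefore also compared with their neighbors, by subtracting the median of the other tested genes within 1 Mb. That median was treated as exact, so the adjusted p-values after subtraction leave out its own spread. In Pds5b-KO, H19 (-3.62, adjusted p = 7.4e-09), Slc22a18 (-2.04, adjusted p = 1.9e-05) and Phlda2 (-0.77, adjusted p = 7.4e-05) remained lower, and Kcnq1ot1 was then called higher (2.06, adjusted p = 0.00073). The window around H19 also reached below 142 Mb, into the stretch with a median of 0.77, and its value changed little from -3.74. H19 was therefore not compared with the lower stretch alone. The values of Cd81 (-0.27), Tssc4 (-0.39), Ascl2 (-0.73) and Cdkn1c (-0.21) were no longer called. In Pds5a-KO, where the neighbors of this cluster had medians of 0.16 to 0.17, Cdkn1c and Phlda2 kept their calls and Ascl2 did not (0.79, adjusted p = 0.0195).

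**Figure D4:**
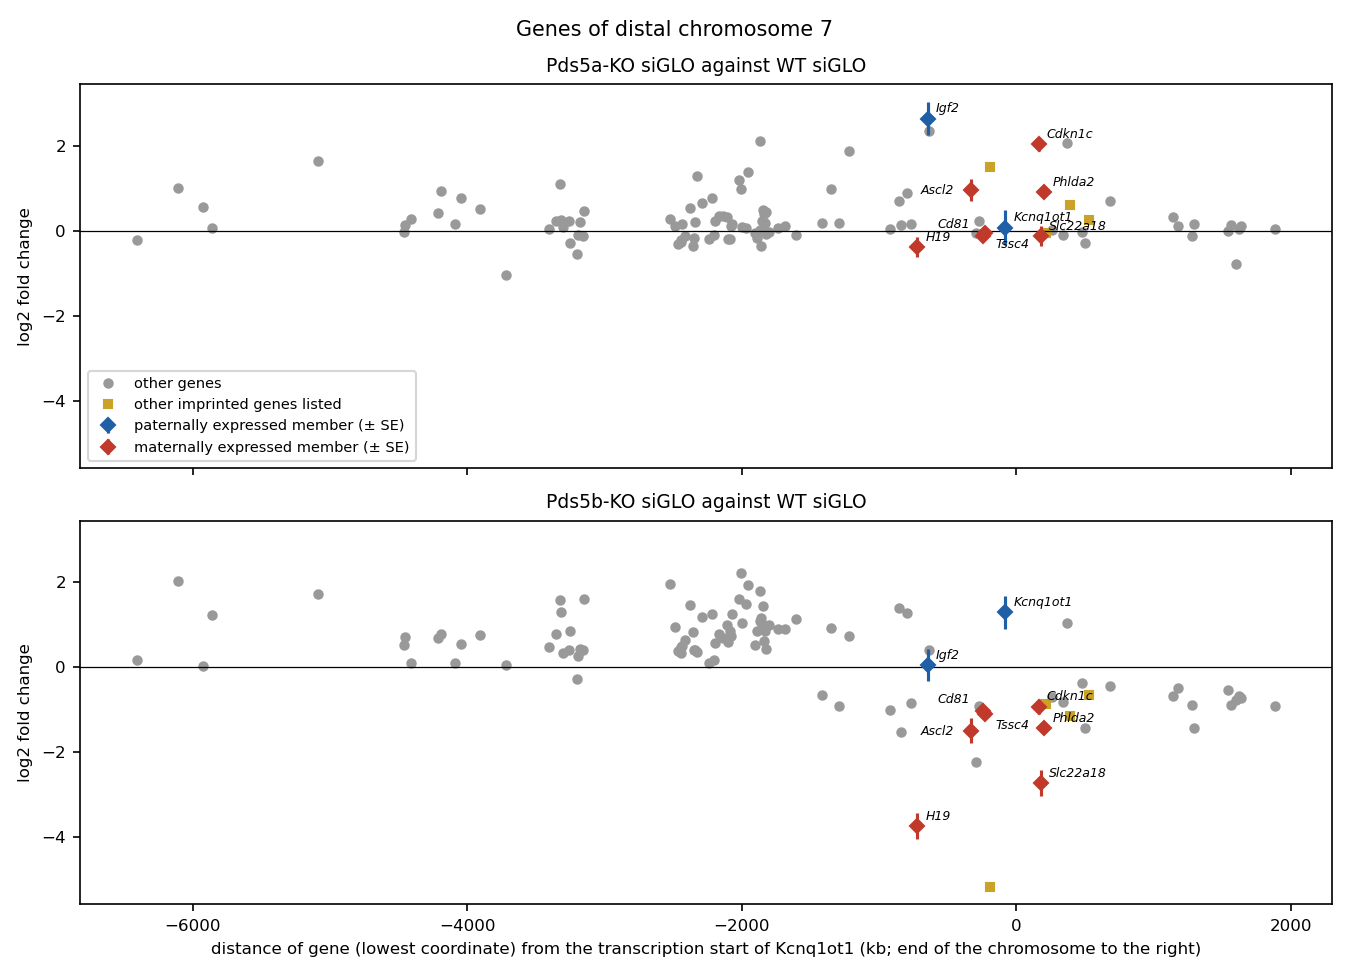
Log2 fold change against WT siGLO (y axis) of tested genes on distal chromosome 7 by distance of their lowest coordinate from the transcription start of Kcnq1ot1 (x axis, kb, chromosome end to the right), in Pds5a-KO siGLO and Pds5b-KO siGLO. In Pds5b-KO the gray points, genes that are not members, lie mostly above 0 on the left and mostly below 0 on the right, with H19 and Slc22a18 lower than the gray points around them.

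The Dlk1/Meg3 cluster of chromosome 12 rose on both parental sides. Dlk1, a paternally expressed Notch-like ligand, had 78.2, 52.9 and 79.4 normalized counts in WT siGLO, 216, 221 and 259 in Pds5a-KO siGLO and 248, 279 and 267 in Pds5b-KO siGLO, with no overlap between either knockout and WT. Its rise was 1.71 (SE 0.16, adjusted p = 3.4e-08) and 1.90 (SE 0.16, adjusted p = 7.2e-09). The maternally expressed non-coding RNA Meg3 rose by 0.92 and 1.25, from 2312 ± 93.6 to 4373 ± 365 and 5508 ± 649 normalized counts, and Rian, which hosts small nucleolar RNAs, rose by 0.64 and 1.00. Mirg, a microRNA host, rose by 0.92 in Pds5b-KO (adjusted p = 0.0069). That call was lost without any of 4 of the 6 libraries and with the neighbors within 1 Mb subtracted (0.79, adjusted p = 0.0164). In Pds5a-KO the value of Mirg was 0.76 (adjusted p = 0.023). The retrotransposon-derived Rtl1 had values of 0.94 and 0.47 that were not called. Tested genes within 1 Mb had medians of 0.02 to 0.13 around these members in Pds5a-KO with 0 called, and 0.21 to 0.28 around Dlk1 and Meg3 in Pds5b-KO.

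Nnat and Peg10, both paternally expressed, rose in the 2 knockout lines. Nnat, a membrane proteolipid of the developing nervous system, had 115, 116 and 98.4 normalized counts in WT siGLO, 486, 845 and 746 in Pds5a-KO siGLO and 249, 309 and 416 in Pds5b-KO siGLO. Its rise was 2.66 (SE 0.21, adjusted p = 1.2e-08) and 1.57 (SE 0.21, adjusted p = 1.3e-05), and its levels also differed between the knockouts (1.09, adjusted p = 0.0002), a call lost with only the compared libraries (1.07, adjusted p = 0.0133). Without replicate 1 of Pds5a-KO siGLO, the lowest of its group, the rise in that line was 2.85. Peg10 rose by 1.72 (SE 0.30, adjusted p = 0.00064) and 1.52 (SE 0.30, adjusted p = 0.0016). Replicate 1 of Pds5a-KO siGLO was again the lowest for Peg10 (7264 against 11626 and 15685), and without it the rise was 1.95; fitted on the compared libraries alone, the change was not called (1.71, adjusted p = 0.0174).

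The other genes of the Peg10 cluster differed from it. Ppp1r9a, a maternally expressed actin-binding protein of neurons, had a value of -0.24 in Pds5a-KO that was not called and rose by 0.63 in Pds5b-KO (adjusted p = 0.0013, lost without WT replicate 2 or 3, at adjusted p = 0.0106 and 0.0101). Sgce, a sarcoglycan that shares its promoter region with Peg10, had values of 0.15 and -0.25, and Asb4 values of -0.36 and 0.15, none of them called by edgeR. Peg10, Ascl2, Cdkn1c, Phlda2 and Igf2, all called higher in Pds5a-KO, are expressed in trophoblast. The members were not sorted by expression in that cell type, and 6 of the 44 tested were called lower in Pds5a-KO. Summed trophoblast markers were 1967, 3290 and 3369 in Pds5a-KO siGLO against 1065, 1381 and 1367 in WT siGLO and 1229, 1497 and 1424 in Pds5b-KO siGLO. The list has 7 markers, of which Elf5 had 0 to 6 counts per library and was not tested. Of the other 6, Krt7, Hand1 (3.50), Cdx2 (1.90), Gata3 and Tfap2c were called higher in Pds5a-KO and Eomes lower. DESeq2 called 5 higher and 1 lower in Pds5a-KO. In Pds5b-KO it called 3 higher and 1 lower, among Cdx2, Eomes, Gata3 and Krt7. The part of trophoblast-like cells in the rise of Peg10, Ascl2, Cdkn1c, Phlda2 and Igf2 was not tested. The 10 fibroblast markers, a cell type that also expresses Igf2 and H19, summed to 2372, 2401 and 3288 in WT siGLO, 980, 2552 and 2730 in Pds5a-KO siGLO and 754, 930 and 1127 in Pds5b-KO siGLO; 8 were tested, 3 of them (Postn, Acta2 and Thy1) were called lower in Pds5b-KO by edgeR and 4 by DESeq2, where Postn had a log2 fold change of -3.68, against -1.74 without a call in Pds5a-KO. The part of fibroblast-like cells in the result was not tested either.

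Of 6 members around Snrpn and Ube3a, the region whose human counterpart is altered in Prader-Willi and Angelman syndromes, 4 were tested. Magel2, a paternally expressed regulator of ubiquitin ligases, had 37.8, 124 and 114 normalized counts in WT siGLO, 9.14, 4.68 and 6.75 in Pds5a-KO siGLO and 25.3, 22.9 and 31.1 in Pds5b-KO siGLO. Neither knockout overlapped WT, although WT replicate 1 was low. The fall was -3.72 (SE 0.55, adjusted p = 3.5e-05) in Pds5a-KO and -1.78 (SE 0.45, adjusted p = 0.0053) in Pds5b-KO, the latter lost without any of 5 of the 6 libraries (adjusted p of 0.0131 to 0.0287). Without WT replicate 1 the values were -4.10 and -2.15, both called. Its neighbors Ndn, which encodes the MAGE-family protein necdin, and Mkrn3, a ubiquitin ligase, were called in no comparison by edgeR; between the knockouts Ndn had -0.51 (adjusted p = 0.0145), which DESeq2 called (-0.53, adjusted p = 0.0053). The maternally expressed ubiquitin ligase Ube3a was lower in Pds5a-KO than in Pds5b-KO by 0.50 (adjusted p = 0.004), a call lost without Pds5a-KO replicate 2 or Pds5b-KO replicate 1 and with only the compared libraries (adjusted p = 0.0215), and was called in neither line against WT. With the neighbors within 1 Mb subtracted, and the spread of their median left out, Ube3a was called higher (0.90) and Mkrn3 lower (-1.06) in Pds5b-KO against WT. Ndn was then called lower in both lines, with -0.98 in Pds5a-KO and -0.80 in Pds5b-KO.

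Mcts2 fell and H13, its host gene, rose in both knockouts, although the rise of H13 in Pds5b-KO was lost against its neighbors. Mcts2, a paternally expressed retrogene inside an intron of H13, had 499 ± 30.2 normalized counts in WT siGLO, 249 ± 19.9 in Pds5a-KO and 341 ± 20.4 in Pds5b-KO, a fall of 1.01 (adjusted p = 1.1e-06) and 0.55 (adjusted p = 0.0011) on the log2 scale. H13, a signal peptide peptidase, rose by 0.42 in each (adjusted p = 0.00012 and 0.00015), from 890 ± 5.92 to 1193 ± 44.9 and 1187 ± 64.3. With the neighbors within 1 Mb subtracted, the value in Pds5b-KO was 0.15 and not called (adjusted p = 0.112). The log2 ratio of Mcts2 to H13 was -0.83 ± 0.08 in WT, -2.26 ± 0.06 in Pds5a-KO and -1.80 ± 0.04 in Pds5b-KO (SD, n = 3). Mcts2 is a copy of Mcts1, and the counting could have split reads between the pair, so its level is uncertain.

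Several single-gene loci changed in only one list of calls, which by itself does not show a difference between the knockouts. Impact had 2697, 2726 and 2984 normalized counts in WT siGLO and 6192, 5862 and 6054 in Pds5b-KO siGLO, a rise of 1.11 (SE 0.09, adjusted p = 2.7e-09), with 0.16 (not called) in Pds5a-KO, and the direct comparison was called (-0.95). Grb10 rose by 0.36 in Pds5b-KO and was lower in Pds5a-KO than in Pds5b-KO by 0.29, but with the neighbors within 1 Mb subtracted the latter value was 0.13 and no longer called. After that subtraction Grb10 was called higher against WT siGLO in both lines, by 0.54 in Pds5a-KO and by 0.60 in Pds5b-KO. Zdbf2, a zinc-finger gene, fell by 0.60 in Pds5a-KO (adjusted p = 0.0077) with 0.03 in Pds5b-KO and a called difference between the lines (-0.63, adjusted p = 0.0054); both the fall and this difference were lost without any of 5 of their 6 libraries and without the low-count filter. Nespas, an antisense RNA of the Gnas locus, rose by 1.10 in Pds5a-KO (adjusted p = 0.0027, lost without WT replicate 3 or Pds5a-KO replicate 1 or 3); 38.5% of its exons overlap Gnas on the opposite strand, and Gnas, the stimulatory G-protein subunit, was called in no comparison by edgeR.

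Like Zdbf2, other single loci fell: Zrsr1 and Usp29 were called lower in Pds5b-KO and Plagl1 in Pds5a-KO. Zrsr1, a splicing factor retrogene in an intron of Commd1, fell by 0.45 in Pds5b-KO (adjusted p = 0.0019, lost without WT replicate 1 or Pds5b-KO replicate 2) and had a value of 0.00 in Pds5a-KO. Commd1, an endosomal trafficking factor, had values of -0.05 and -0.23 that were not called. Usp29, which shares the Peg3 promoter, fell by 1.45 in Pds5b-KO (adjusted p = 0.0062, lost without any of 4 of the 6 libraries) and had -0.69 in Pds5a-KO; the zinc-finger genes Peg3 and Zim1 were called in no comparison by edgeR. Plagl1, a zinc-finger growth regulator, fell by 1.33 in Pds5a-KO (adjusted p = 0.0089, lost without any of 5 of the 6 libraries) and was not called in Pds5b-KO (adjusted p = 0.036), at 192 ± 48.8 against 387 ± 155 normalized counts. That value was called without WT replicate 1 (-1.29, adjusted p = 0.0055). With the neighbors within 1 Mb subtracted, Zrsr1 (-0.29) and Usp29 (-1.26) in Pds5b-KO and Plagl1 (-1.19) in Pds5a-KO were no longer called. Igf2r, the scavenging receptor of IGF2, was called in no comparison. Its antisense RNA Airn, near the detection limit, was called higher in Pds5a-KO siPds5b against WT siGLO (2.40, adjusted p = 0.0089, lost without any of 5 of the 6 libraries). In Pds5a-KO siGLO its value was almost as large (2.37, adjusted p = 0.0154) and was called without replicate 1 of that group (2.85, adjusted p = 0.0016), and siPds5b in Pds5a-KO cells changed it by 0.03. Nap1l5, a nucleosome assembly protein relative, was at 8.74 ± 4.37 in WT siGLO and was called nowhere.

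Counts by parent of expression were as follows. Of the 22 tested paternally expressed members, 5 rose and 6 fell in Pds5a-KO, and 6 rose and 4 fell in Pds5b-KO, where 9.63% of all genes were called higher and 8.12% lower in Pds5a-KO, and 9.64% and 8.57% in Pds5b-KO. Of the 21 maternally expressed members, 6 rose and 0 fell in Pds5a-KO by edgeR, and 6 rose and 7 fell in Pds5b-KO; 6 of those 7 belong to the Kcnq1ot1 cluster and the seventh is H19, all in the distal stretch of chromosome 7 whose other genes were also lower. The median change was 0.04 for paternally and -0.05 for maternally expressed members in Pds5a-KO, and 0.11 and -0.01 in Pds5b-KO, beside 0.00 for all genes in both. The median size of change was 0.97 and 0.27 in Pds5a-KO, and 0.80 and 0.92 in Pds5b-KO. Neither parental class as a whole moved in one direction, and a difference between the classes was not tested.

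A grouping by promoter gave counts of the same kind. Of 18 members whose promoter lies in a maternally methylated region, 16 were tested, of which 3 rose and 4 fell in Pds5a-KO and 6 rose and 3 fell in Pds5b-KO, beside 17.8% and 18.2% of all genes called in either direction. Of the 28 other tested members, 8 rose and 2 fell in Pds5a-KO and 6 rose and 8 fell in Pds5b-KO. The 4 genes whose promoters are printed above were picked from the first group by their change in Pds5a-KO. That Mest, Plagl1 and Mcts2 fell there while Nnat rose follows from this choice.

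**Figure D5:**
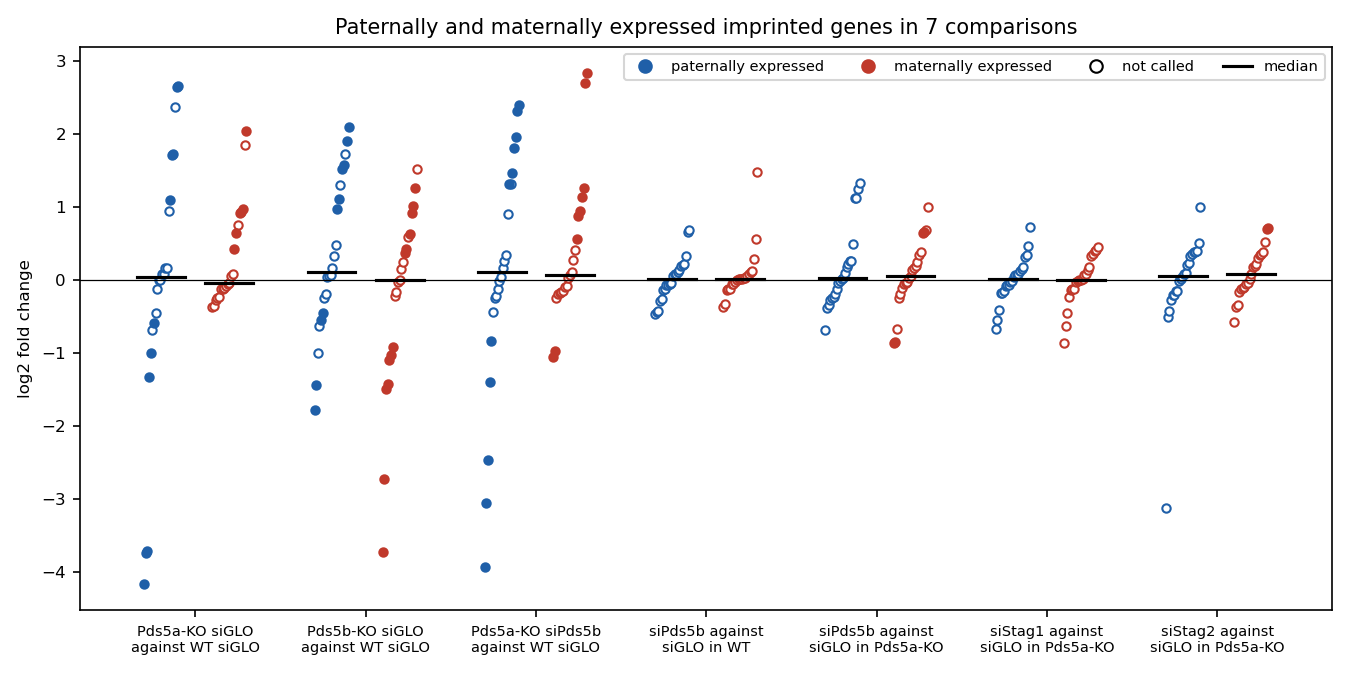
Log2 fold change (y axis) of each tested paternally or maternally expressed member (points) in the comparisons named on the x axis; open points were not called. In Pds5a-KO siGLO the called maternally expressed members all lie above 0, in Pds5b-KO siGLO they lie on both sides, and siPds5b in WT cells has no called member.

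Short-term depletion of Pds5b in WT cells left all tested members without a call. None of the 44 tested members was called by edgeR in WT siPds5b against WT siGLO, where 0.00668% of all genes (1 gene) was called, and 1 member had an unadjusted p under 0.05 (4.22% of all genes did). DESeq2 also called 0. That member was Cdkn1c, with 824, 429 and 530 normalized counts against 472, 353 and 384, groups that overlapped (0.56, SE 0.16, adjusted p = 0.945). Values over all members ran from -0.47 for Plagl1 to 1.48 for Klf14, a gene near the detection limit. H19 was at 90.6 ± 12.7 against 118 ± 4.09, Impact at 2668 ± 275 against 2802 ± 158, and Nnat at 101 ± 16.5 against 110 ± 9.93. Compared directly with WT siPds5b, a comparison added after seeing the data, Pds5b-KO siGLO had 23 members called, 12 higher and 11 lower, with 18.8% of all genes called (9.38% higher and 9.46% lower); among them Mest was higher by 1.10 and H19 lower by 3.36 on the log2 scale. Pds5b RNA was lower in the knockout (12.4% of WT) than after siPds5b (35.0%), and the time without the protein also differed.

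Adding siPds5b to Pds5a-KO cells changed few members further. Against Pds5a-KO siGLO, 2 of the 44 were called, with 7.59% of all genes called (4% higher and 3.59% lower), and 11 members had an unadjusted p under 0.05, as did 29.3% of all genes. Cdkn1c rose again, from 1640, 1741 and 1590 to 2401, 2729 and 2685 normalized counts (0.65, SE 0.15, adjusted p = 0.0054), although the call was lost without any of 5 of the 6 libraries (adjusted p of 0.0175 to 0.0258). Phlda2, a neighbor of Cdkn1c in the same cluster, fell from 2597, 2462 and 2160 to 1218, 1455 and 1325 (-0.85, SE 0.12, adjusted p = 2.8e-05). Neither pair of groups overlapped. Plagl1 was higher after siPds5b by 1.12 (adjusted p = 0.041), which was called when the replicate number was kept as a block (1.15, adjusted p = 0.00078). With the neighbors within 1 Mb subtracted, Grb10 (0.67) and Mcts2 (-0.48) were called as well.

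The combined depletion was also set against WT siGLO. In Pds5a-KO siPds5b 20 members were called, 13 higher and 7 lower, with 32% of all genes called (17.4% higher and 14.6% lower). Mest was lower by 3.94, Peg13 had 3, 3 and 1 counts, and Cdkn1c was higher by 2.69 on the log2 scale, while Phlda2 was back at 1333 ± 119 against 1268 ± 191 in WT (0.07, not called). Slc22a18, with 28.4, 23.8 and 53.8 normalized counts against 75.6, 64.2 and 68.6, was lower by 0.98 (adjusted p = 0.0029, lost without WT replicate 1 or Pds5a-KO siPds5b replicate 1 or 2 and with only the compared libraries). The effect of siPds5b was not called as different between Pds5a-KO and WT cells for any tested member by edgeR (0 of 44, with 1.48% of all genes called and 3 members, beside 17.3% of all genes, at an unadjusted p under 0.05); DESeq2 called 1, Phlda2 (-0.72, adjusted p = 0.00236, against -0.73 and 0.0142 by edgeR). With the neighbors within 1 Mb subtracted, this difference was called for Grb10 (0.74) and Phlda2 (-0.77).

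Depleting a STAG subunit in Pds5a-KO cells left nearly all tested imprinted genes without a call. After siStag1, 0 of the 44 were called by edgeR and by DESeq2, with 0.0936% of all genes called and 7 members, beside 10.7% of all genes, at an unadjusted p under 0.05. After siStag2, 1 was called, with 2.24% of all genes called: Ppp1r9a rose from 643, 485 and 621 to 1225, 815 and 820 normalized counts (0.71, SE 0.14, adjusted p = 0.0032), groups that did not overlap. That call was lost without Pds5a-KO siGLO replicate 2 (adjusted p = 0.0291) or siStag2 replicate 1 (adjusted p = 0.0338). Meg3 was higher by 0.51 (adjusted p = 0.025), and was called with the replicate number as a block (0.50, adjusted p = 0.0076), which made the count 2. Between siStag2 and siStag1, 0 members were called by edgeR and by DESeq2, with 0.394% of all genes called and 7 members, beside 19.9% of all genes, at an unadjusted p under 0.05. Igf2 in the siStag2 libraries (5500, 5920 and 6593) lay within the range of Pds5a-KO siGLO.

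Of the 44 tested members, 30 were called by edgeR in at least 1 of the 10 planned comparisons. The share of all genes called in at least 1 of the 10 was not counted, so that number has no baseline. Single comparisons called up to 32% of all genes. The 14 members without such a call were Copg2, Peg3, Zim1, Sgce, Asb4, Igf2r, Kcnq1ot1, Rtl1, Ndn, Mkrn3, Gnas, Commd1, Trappc9 and Nap1l5. Of these, DESeq2 called 1, Ndn, and leaving out a library gave a call for 2, Gnas and Kcnq1ot1. The replicate block called 5 (Gnas, Kcnq1ot1, Ndn, Peg3 and Sgce), and a fit on only the compared libraries called Kcnq1ot1. With the neighbors within 1 Mb subtracted, Kcnq1ot1, Ndn, Mkrn3 and Trappc9 were each called in at least 1 of these comparisons.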

How the data were processed

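RNA-seq of 21 libraries (7 conditions, 3 replicates each) was analysed from gene tables of raw counts that the authors deposited, 1 per library. Per the labels and the study's methods, poly-A reads were aligned with STAR to mm10; the counting tool, annotation and strand setting are not given in the sources used here. Groups were taken from the sample titles. The symbols of 47 imprinted genes were matched to the tables; members and lists were chosen with earlier results of these data known. Genes were filtered with filterByExpr, scaled by TMM and fitted with 1 mean per condition over all 21 libraries (edgeR 4.0.16, limma 3.58.1, R 4.3.3; quasi-likelihood F test, robust, two-sided), with Benjamini-Hochberg adjustment over 14963 genes and a threshold of 0.01. Named genes followed a rule: Mest and its cluster always; other members called in at least 1 comparison with a mean of at least 1 CPM per library for the 8 largest changes; partner genes side by side; the rest by condition means or ranges; of the lists of imprint maintenance factors, other imprinted genes and Mest neighbors, up to 3 called genes each way. Klf14 and Airn, under 1 CPM, and distal chromosome 7 were described after their values were seen. Ratios used a pseudocount of 0.5 normalized counts. Exon lengths and overlaps came from GENCODE vM21 (GRCm38), which gave an exon length for all 47 members. Gene positions came from RefSeq, in which 99.3% of symbols matched, and promoters also came from RefSeq. With 3 against 3 libraries an exact permutation test cannot go below p = 0.1, so none is quoted. The scripts were tested on simulated data.

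Replicates sharing a number deviated together (all 3 correlations of deviations from the group means over 0.1) for siPds5b in WT cells (0.336 to 0.521) and, in Pds5a-KO cells, for siPds5b (0.336 to 0.688), siStag1 (0.175 to 0.624) and siStag2 (0.135 to 0.236). The pairing there is inferred from these correlations, since the labels give the numbers without saying what they mark. Alternatives covered DESeq2 1.42.0, other scaling, no filter or a filter of 10 counts in every library, a threshold of 0.05, the compared libraries alone, a replicate block, chromosome or neighbor medians subtracted, and leaving out each library. The comparison of Pds5b-KO with WT siPds5b and the neighbor subtraction were added after seeing the data. Subtracted medians were treated as exact, so every adjusted p after a subtraction leaves out their own spread.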

Additional observations from a re-analysis of the deposited data

How the results depend on the processing

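Counts of called members were within 1.5 times the reported count under most alternatives, with these exceptions. For siPds5b in Pds5a-KO cells the count of 2 became 6 at an adjusted p under 0.05 and 1 without the low-count filter. For siStag2 in Pds5a-KO cells the count of 1 became 2 at an adjusted p under 0.05, 2 with DESeq2, 2 with the replicate block and 0 with only the compared libraries. For siStag2 against siStag1 the block gave 1 (Sgce) in place of 0. For the difference in the siPds5b effect between genotypes, 0 became 1 at an adjusted p under 0.05, 1 with DESeq2 and 1 with the block (Plagl1, 1.60, adjusted p = 0.00239). Leaving out 1 library gave 13 to 15 calls for Pds5a-KO against WT, 19 to 22 for Pds5b-KO against WT, 14 to 18 between the knockouts, 17 to 20 for Pds5a-KO siPds5b against WT, 17 to 21 for Pds5b-KO against WT siPds5b, 1 to 2 for siPds5b in Pds5a-KO, 0 to 2 for siStag2, 0 to 1 for the difference in the siPds5b effect, and 0 for siPds5b in WT, siStag1, and siStag2 against siStag1. The cause of these shifts was not tested. Of 132 alternative values of the parental medians, 9 moved by over 1 SD: without the filter and with only the compared libraries, the paternal median in Pds5a-KO siPds5b against WT was 0.03 and 0.04; with at least 10 counts in every library, the paternal median in Pds5b-KO against WT siPds5b was 0.20, and the maternal median was 0.05 in Pds5a-KO against WT, -0.01 between the knockouts, 0.07 for siStag1, 0.17 for siStag2 and -0.03 between the STAG siRNAs; with only the compared libraries it was 0.12 for siStag2. Of 1635 alternative values of single members, 1499 kept direction and side of the threshold, 133 lost the call and 3 changed sign: with neighbors within 1 Mb subtracted, the knockouts differed by -0.18 for Cd81, 0.13 for Grb10 and -0.011 for Tssc4, none called. In the comparisons where numbers did not pair by the rule, the block ended 1 call, Zdbf2 in Pds5a-KO (-0.60, adjusted p = 0.0113), and added Gnas in Pds5a-KO siPds5b (0.31, adjusted p = 0.00039), Mirg in Pds5a-KO (0.75, adjusted p = 0.0092), Kcnq1ot1 (1.31, adjusted p = 0.0088), Peg3 (-0.61, adjusted p = 0.0052) and Plagl1 (-0.98, adjusted p = 0.0013) in Pds5b-KO, each against WT siGLO, Ndn (-0.51, adjusted p = 0.0098) and Sgce (0.41, adjusted p = 0.0063) between the knockouts, and Peg3 (-0.55) and Usp29 (-1.22) in Pds5b-KO against WT siPds5b. For genes with a median under 10 counts over the libraries (Klf14, Asb4, Airn, Nap1l5 and, through its Pds5a-KO libraries, Peg13) depth limits the precision, and a change not called there was not detectable at this depth.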

Other observations

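Imprinted genes outside the 47 were counted as a second list, fixed by name like the first and chosen with earlier results known. Of 31 such genes 21 were tested. All genes were called at 17.8% in Pds5a-KO, 18.2% in Pds5b-KO and 32% in Pds5a-KO siPds5b, each against WT siGLO. In Pds5a-KO siGLO against WT siGLO, 6 rose and 2 fell by edgeR at an adjusted p under 0.01: Sfmbt2, a polycomb-related gene of the placenta, rose by 2.18, Gatm, an enzyme of creatine synthesis, by 1.94 and Atp10a, a lipid flippase, by 0.76, while Calcr, the calcitonin receptor, fell by 1.22 and Ddc, a decarboxylase that makes dopamine and serotonin, by 0.57 on the log2 scale. In Pds5b-KO, 3 rose and 5 fell. Gatm rose by 1.64, and Kcnq1, the channel gene overlapping Kcnq1ot1, had 3, 6 and 5 counts in WT siGLO and 0 in each Pds5b-KO library. Kcnq1, Nap1l4 (-0.87) and Dhcr7 (-0.66), all among the falls, lie in the distal stretch of chromosome 7 whose other genes were also lower. In Pds5a-KO siPds5b 11 rose and 2 fell, with Gatm higher by 3.14 and Ddc lower by 1.38.

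Among 10 factors that maintain imprints, 1 was called higher and 1 lower in Pds5a-KO, 4 higher and 1 lower in Pds5b-KO, and 1 higher and 3 lower in Pds5a-KO siPds5b, that is 2, 5 and 4 of 10 where 17.8%, 18.2% and 32% of all genes were called. Dppa3, which protects maternal methylation in the early embryo, rose by 2.61 in Pds5a-KO, 1.45 in Pds5b-KO and 2.46 in Pds5a-KO siPds5b. Uhrf1, which guides DNMT1 to newly copied DNA, fell by 0.27, 0.34 and 0.33 in the same order. Zfp57 had a value of -0.35 in Pds5a-KO that was not called and fell by 0.77 in Pds5a-KO siPds5b, where Trim28 fell by 0.56. Their part in the changes of the imprinted genes was not tested.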
